A study of Mus musculus with 2 samples.

Results

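The vascular endothelial growth factor (VEGF) genes Vegfa, Vegfb, Vegfc and Pgf were followed in a map of CHOP binding in mouse liver. They were taken by name from the 21866 protein-coding genes of the GENCODE M21 annotation. No threshold on binding was applied to the 4 members, but they were chosen with earlier results of these data known. CHOP, which Ddit3 encodes, belongs to the C/EBP transcription factors and accumulates under stress of the endoplasmic reticulum (ER). Livers came from wild-type (WT) mice given tunicamycin, which blocks N-linked glycosylation, by intraperitoneal injection at 1 mg/kg body weight for 8 h. Liver of 3 mice was pooled for 1 CHOP immunoprecipitate, sequenced beside 1 input library of tunicamycin-treated WT liver. The mice's strain, age and sex are not given in the sources used here. There was no replicate, no untreated liver and no liver without CHOP, so all comparisons are within 1 list of 14157 peaks and none speaks of induction by the drug or of variation between animals.

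VEGF proteins are secreted dimers that act on receptor tyrosine kinases of blood and lymph vessels. VEGF-A, the main angiogenic factor, signals through the receptors encoded by Flt1 and Kdr. VEGF-B and placental growth factor, the product of Pgf, bind the Flt1 receptor, and VEGF-C drives lymphatic growth through the Flt4 receptor. In liver, VEGF-A from hepatocytes acts on the sinusoidal endothelium. Vegfa is best known as a hypoxia gene, but the ER stress pathways of PERK and ATF4, IRE1 and XBP1, and ATF6 also raise it, and an ATF4 site in the first intron of Vegfa is known. CHOP pairs with other C/EBP proteins and with ATF4. The C/EBP-ATF composite element, searched here as TGATGNAAN, joins a C/EBP site to an ATF site and is read by such pairs.

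A promoter peak has its summit, the point of highest read pileup, within 1 kb of a start site of a protein-coding transcript of the gene. A distal peak has it further away but within 50 kb, with that gene as the nearest protein-coding start. By this rule 6 of the 14157 peaks belonged to the members. Vegfa had 1 promoter and 1 distal peak, Vegfb had 1 promoter peak, Vegfc had 3 promoter peaks, and Pgf had none of either kind. Thus 3 of 4 members had a promoter peak, against 27.9% of all protein-coding genes, and 1 of 4 had a distal peak, against 18% of all. With 4 genes these shares say little, and the members are better described peak by peak. The sequences at the summits come first, because they set the Vegfa peak apart from the other 5.

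Each sequence below is the mm10 (GRCm38.p6) reference within 50 bp of a summit (the summit window), read 5′ to 3′ on the strand of the gene, with UTR bases left out. Capitals mark the composite element on either strand and nothing else. The Vegfa promoter-peak window lies in the first intron at chr17:46030550-46030650 (minus strand). The Vegfb window lies just upstream of the gene at chr19:6987652-6987744 (minus strand). The windows of the most upstream and most downstream Vegfc peaks lie at chr8:54077194-54077294 and chr8:54078288-54078388 (plus strand), and the Vegfa distal window at chr17:45989072-45989172 (minus strand).
Vegfa, intron: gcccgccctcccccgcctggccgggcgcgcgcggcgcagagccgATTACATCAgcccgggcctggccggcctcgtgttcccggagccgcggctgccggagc
Vegfb, upstream: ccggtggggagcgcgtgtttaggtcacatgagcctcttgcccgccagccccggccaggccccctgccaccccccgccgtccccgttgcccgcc
Vegfc, upstream: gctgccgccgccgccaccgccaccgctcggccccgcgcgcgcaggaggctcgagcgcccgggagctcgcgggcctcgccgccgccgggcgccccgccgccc
Vegfc, intron: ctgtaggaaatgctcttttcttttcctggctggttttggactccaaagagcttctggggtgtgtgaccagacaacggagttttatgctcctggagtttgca
Vegfa, distal: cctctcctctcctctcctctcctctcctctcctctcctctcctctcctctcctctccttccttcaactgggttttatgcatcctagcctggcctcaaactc
Among the 6 member windows, the Vegfa intron window was the only one with a composite element. The Vegfb and upstream Vegfc windows are GC-rich without one, and the Vegfa distal window is mostly a CT-rich repeat.

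Vegfa carried the strongest CHOP peak of the family by a wide margin. Its promoter peak spanned chromosome 17, 46030221 to 46031992, and held 151 reads at its summit over a local background of 1.45 reads. The authors' fold enrichment, the ratio of summit pileup to local background with 1 added to each, was 62. With the background taken as known, the 95% exact Poisson interval of the pileup corresponds to folds of 52.6 to 72.6. Such intervals cover counting error only, and the reads carry no molecular identifiers. The authors' −log10 q was 237. None of the other 5 member peaks had an interval reaching above 14.5, so the Vegfa intron peak stood apart from each of them beyond counting error.

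In the whole list the Vegfa peak was the 84th by fold, and among the 6306 promoter peaks it was the 13th. It ranked 46th of all peaks by −log10 q and 29th by reads at the summit. The 3 genes just above Vegfa by promoter fold were Gars, glycyl-tRNA synthetase, at 74.9, Metrn at 65.5 and Mtmr7 at 62.6. The 3 just below were Gpx4, the glutathione peroxidase that protects membrane lipids, at 61.2, Ddit3 itself at 60.9 and Bcl2l10, a BCL2-family gene, at 59.5. The interval of Ddit3, 49.2 to 74.5, covers that of Vegfa. The intervals of all 6 overlap that of Vegfa, and a difference between any of them and Vegfa was not tested. Ppp1r15a, which encodes GADD34 and is where the submitters tested the antibody, had a fold of 40.6 (31.2 to 51.9), below the lower bound for Vegfa.

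**Figure D1:**
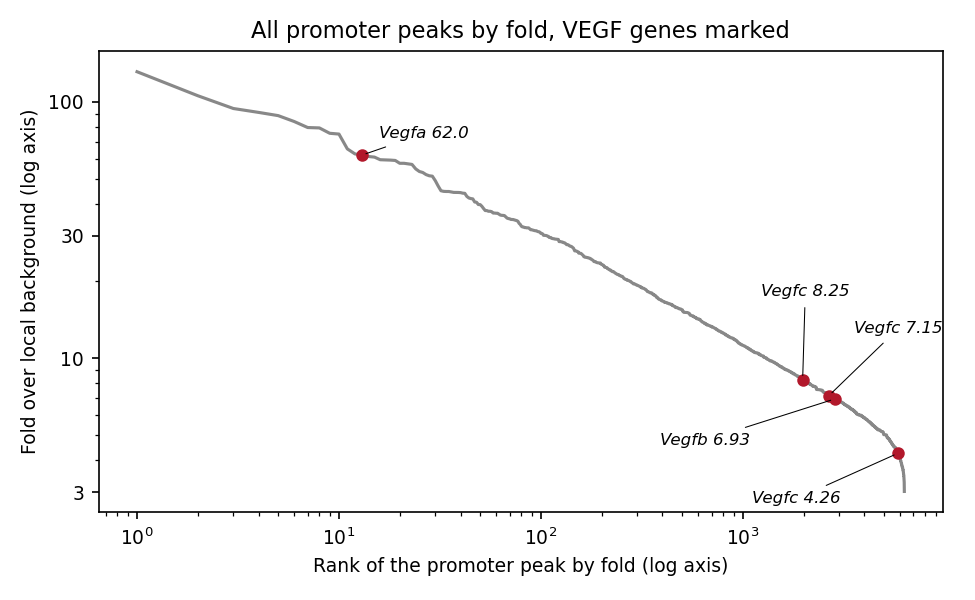
All 6306 promoter peaks by rank (x axis, log) and fold over local background (y axis, log), as a grey line, with the 5 promoter peaks of the VEGF genes as red points labelled with their folds. Vegfa is the 13th, and the other 4 lie at ranks 1978 to 5860, between 4.26 and 8.25.

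The Vegfa peak was also one of the broadest. At 1772 bp it was the 18th widest of the list, in which the median peak is 285 bp wide and 2.03% are 1 kb or wider. It covered 3 of the 4 annotated coding start sites of Vegfa. In the direction of the gene it began 377 bp inside the outermost start. It took in 702 bases of exon 1 as annotated from that start and continued for 1070 bases into intron 1. The summit lay in intron 1, 691 bp past the end of exon 1, in each of the 8 annotated coding transcripts. Of all promoter summits, 24.7% lie in an intron, 55.7% in an exon and 19.6% outside genes. Of the 13 promoter peaks from Vegfa upward, only those of Vegfa and Cebpg had an intronic summit, and only Vegfa's was over 300 bp from the nearest start.

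How far that summit is from "the start" depends on the transcript. It lay 756 bp downstream of the innermost start at 46031356, where the annotated transcripts Vegfa-203 and Vegfa-204 begin at their start codon with no 5′ UTR. It lay 1769 bp downstream of the outermost start at 46032369. The peak therefore counts as a promoter peak through 1 start site only, and with the outermost start alone, or with RefSeq start sites, it counts as distal. Only 5.34% of promoter summits lie more than 700 bp from the nearest start, and the median is 108 bp. Vegfa was the member nearest the 1 kb limit on the inside, and the next summit outward at any member, 12552 bp from Vegfb, is nearer to another gene.

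**Figure D2:**
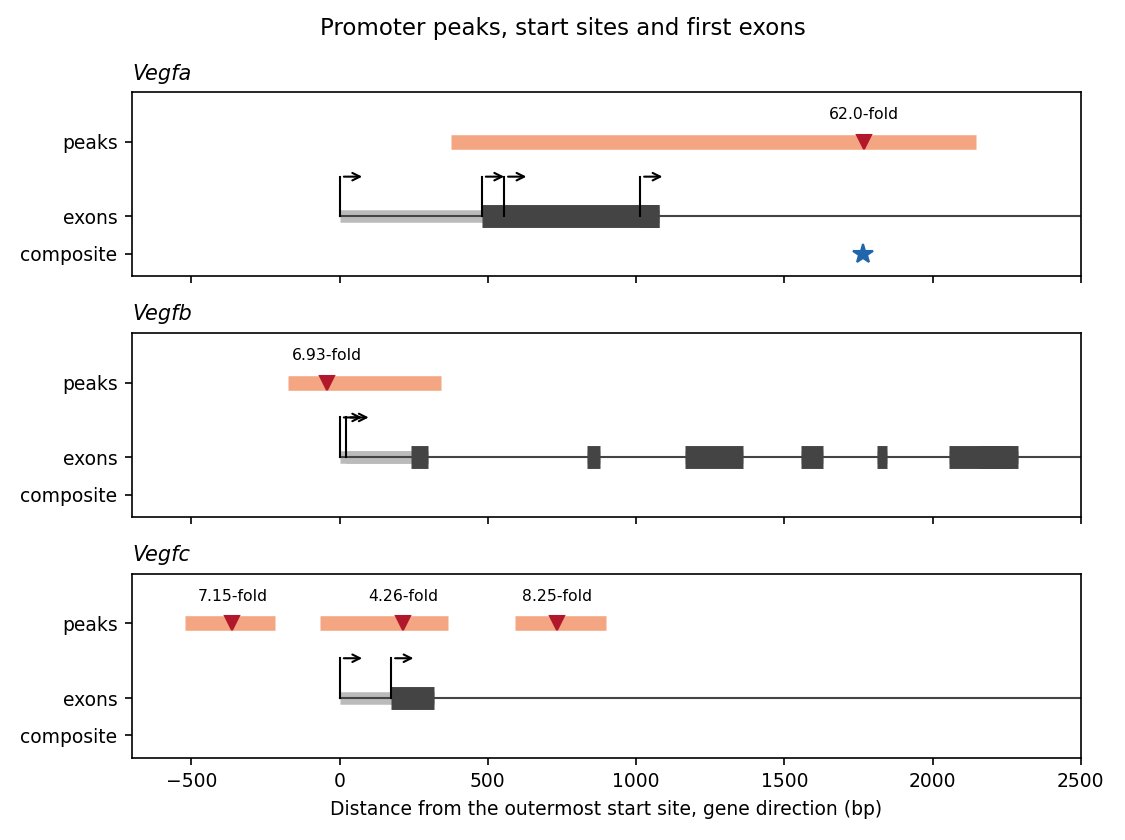
Position from the outermost start site in the direction of the gene (x axis, bp) for Vegfa, Vegfb and Vegfc, with promoter peaks as orange bars, summits as red triangles with their folds, exons in grey with coding parts dark, start sites as arrows and composite elements as stars. The Vegfa summit lies in intron 1 at a composite element, whereas the Vegfb and Vegfc peaks hold none.

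The centre of the Vegfa composite element was 2 bp from the summit. Over all peaks with a composite element within 50 bp, the median distance is 19 bp. The element is the only TGATGNAAN match on either strand in the 1772 bp of the peak. It reads TGATGTAAT on the strand opposite to the gene (chromosome 17, 46030598 to 46030606). To show how it compares with those at loci of like fold, the elements of Vegfa, Ddit3 and Gars are given with 10 flanking bases on either side, each on the strand that reads TGATG, with the element in capitals. They lie at chr17:46030588-46030616 (plus strand), chr10:127290481-127290509 (minus strand) and chr6:55037960-55037988 (minus strand).
Vegfa: aggcccgggcTGATGTAATcggctctgcg
Ddit3: ggggcggggaTGATGCAATgtttggcaac
Gars: gcccggtgcaTGATGAAATagcgcagcca
These are 3 forms of the same motif, and each runs opposite to its gene. The Gars and Ddit3 elements were centred 1 bp and 12 bp from their summits.

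A composite element is uncommon at promoter summits. It was present within 50 bp of 119 promoter summits, which is 1.89%, against 9.77% of the 7851 other summits and 0.967% of windows of the same length centred on 54374 annotated start sites. Promoter peaks with one had a median fold of 9.75, against 6.60 without. Of the 13 promoter peaks from Vegfa upward, 4 had one: Cebpg, whose product dimerises with ATF4, Trib3, a pseudokinase induced in ER stress, Gars and Vegfa. That cut is Vegfa's own fold. Promoter or not, 7 of the 100 peaks of highest fold had one, near the 6.26% of all peaks. The Vegfa form TGATGTAAT occurred at 62 summits, 8 of them at promoters, and Vegfa had the highest fold of the 62, the next being 26.9. The median fold of the 62 was 6.75, the same as that of the whole list. The form TGATGCAAT was more frequent, at 159 summits.

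The sequence around the Vegfa element is GC-rich. The summit window was 81.2% GC with 16 CpG dinucleotides, and the median promoter summit is 74.3% GC. Of the 1061 promoter summits with a GC share at or above that of Vegfa, itself included, Vegfa was the only one with a composite element. The cut is Vegfa's own value, and most fixed bases of TGATGNAAN are A or T, so windows this GC-rich are unlikely to hold it. A GC box, GGGCGG, also lay in the window, 45.5 bp upstream of the summit in the direction of the gene. It is a frequent match, found at 45.4% of promoter summits. Within the whole peak there were 5 GC boxes, 2 matches each of AGGTCA and TTNNGNAA, 1 CRE core (TGACG) and 1 TGCAAT match, the last 1143.5 bp upstream of the summit. The full CRE palindrome TGACGTCA, the AP-1 motif TGANTCA, the E-box CACGTG and the C/EBP palindrome TTGCGCAA had no match in it on either strand. Motifs can overlap: TGACG lies within TGACGTCA, ACGTG overlaps CACGTG, and TGCAAT lies within TGATGCAAT.

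The hypoxia core ACGTG was placed against the peak because hypoxia is the classical input to Vegfa. In the 2000 bp upstream of the outermost start, ACGTG matched at 929 bp, and at 1913 and 1914 bp on opposite strands of a shared CACGTG. The match at 929 bp reads catacgtgggt, with the core and its flanks as in the known hypoxia response element of the gene. It lies 1306 bp outside the CHOP peak. No summit was listed nearer than 41695 bp on the upstream side of Vegfa. Inside the peak ACGTG occurred 3 times, 446 to 628 bp upstream of the summit. For scale, 33.7% of promoter peaks hold an ACGTG somewhere in their interval.

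The distal peak of Vegfa was weak. It lay 42234 bp downstream of the innermost start, beyond the end of the gene, in intergenic sequence at chromosome 17, 45988970 to 45989141. Its summit held 7 reads, for a fold of 4.82 (2.3 to 9.29) and a −log10 q of 3.32, and only 14.8% of all peaks had a lower fold. Its width of 172 bp is the smallest in the list, shared with 19.2% of peaks. In the summit window 86.1% of bases are soft-masked as repeat in the reference, against 0% in the window of the intron peak. A composite element, TGATGCAAG, lay 123 bp from the summit. A long noncoding RNA gene, AC127690.1, starts nearer to this summit than Vegfa does, at 27263 bp.

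Vegfa stands alone on its stretch of chromosome. No other protein-coding start lay within 50 kb of its starts. On the upstream side the nearest summit was 41695 bp from Vegfa, in an intron of the noncoding gene AC110562.2 and nearer to Mrps18a, a mitochondrial ribosomal protein gene. That peak had 7 reads, a fold of 6.0 (2.86 to 11.6) and a composite element within 50 bp. The intervals of these outlying peaks overlap each other and lie far below that of the intron peak. Of the 3 peaks within 50 kb, only the intron peak had a fold above the list's median of 6.75.

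**Figure D3:**
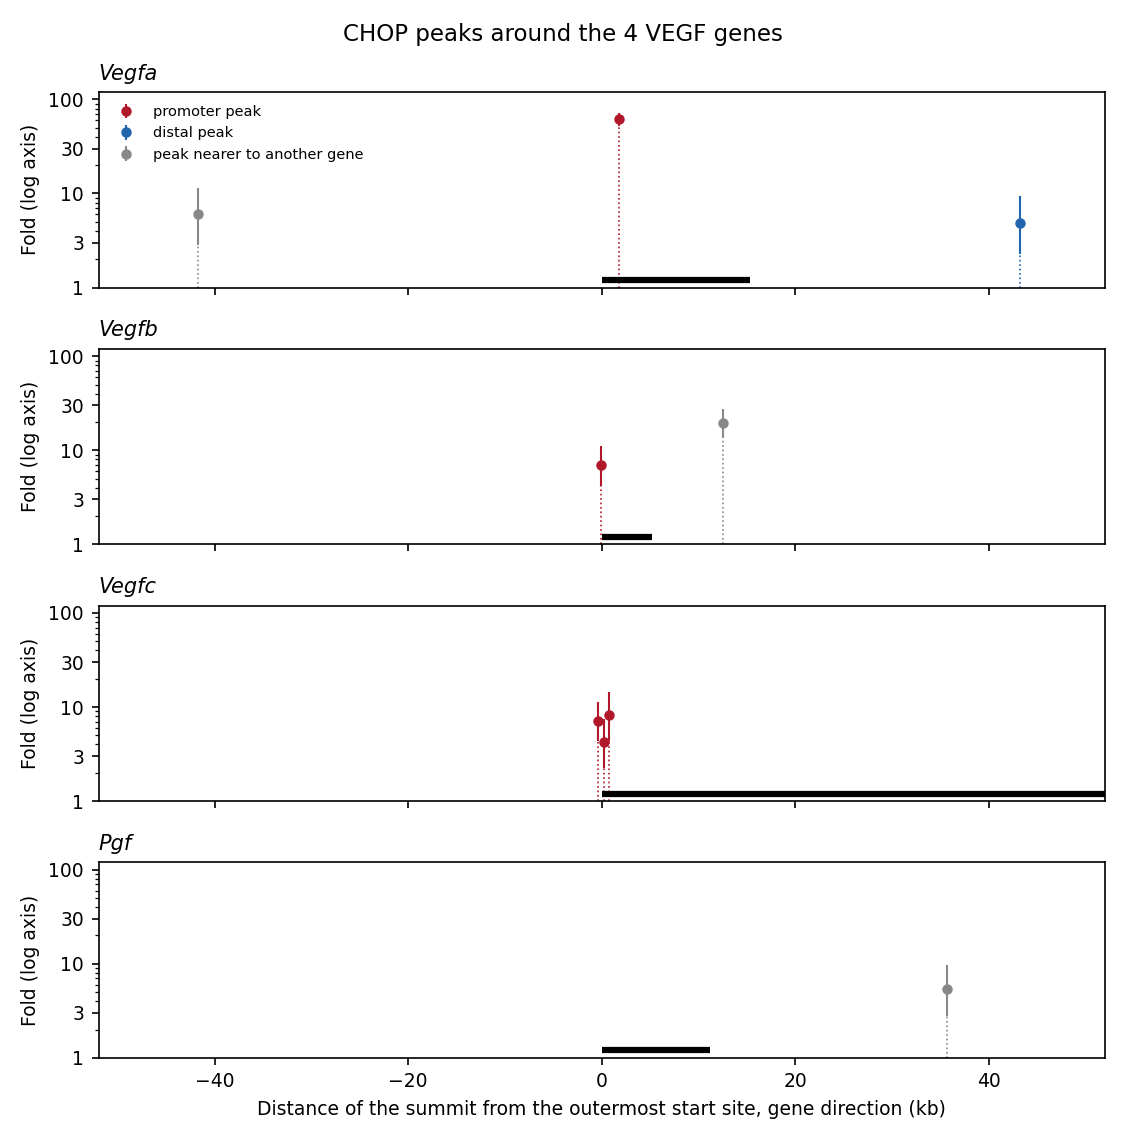
Fold over local background (y axis, log) against the distance of the summit from the outermost start site in the direction of the gene (x axis, kb), for every listed peak within 50 kb of a start site of each VEGF gene. Bars are 95% Poisson intervals, black bars at the base are the genes, and the Vegfa intron peak at 62 is the only point above 20.

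Vegfb, whose product binds the Flt1 receptor and has been tied to fatty acid uptake, had a moderate peak at its start. The peak covered chromosome 19, 6987310 to 6987825, both annotated starts included, with the summit 43 bp upstream of the outer one. It held 16 reads over a background of 1.45, for a fold of 6.93 (4.14 to 11) and a −log10 q of 8.96. It was 2849th of the promoter peaks, whose median fold is 6.65, close to the middle of the list. The background was the same as at Vegfa, and the read counts of 16 and 151 can be set directly side by side.

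The Vegfb window held no composite element, and neither did the rest of its 516 bp. The only searched motif near the summit was AGGTCA, a nuclear receptor core, 27.5 bp upstream, which 3.14% of promoter summits have. GC boxes occurred 7 times in the peak, none of them within 50 bp of the summit. Vegfb lies in a dense stretch where 9 other protein-coding genes start within 50 kb. Of these 9 only Ppp1r14b, which encodes a phosphatase inhibitor subunit, had a promoter peak, of fold 19.7 (13.7 to 27.4) with 33 reads. Its summit was 12552 bp from the Vegfb start. The closest neighbour, Dnajc4, starts 4621 bp away and had no promoter or distal peak.

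Vegfc, the lymphatic growth factor, had 3 separate promoter peaks, a number reached or passed by 91 genes, or 0.416% of all. Of the 6100 genes with any promoter peak, 87.1% had 1. The most upstream Vegfc peak covered chromosome 8, 54077085 to 54077387, with 17 reads and a fold of 7.15 (4.33 to 11.2). Its summit was 362 bp upstream of the outermost start. The middle peak, 54077541 to 54077971, covered both start sites with its summit in a coding exon and had 10 reads and a fold of 4.26 (2.24 to 7.5). The third, 54078197 to 54078505, had its summit in an intron, 559 bp from the nearest start, with 10 reads and a fold of 8.25 (4.35 to 14.5).

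The intervals of the 3 Vegfc peaks overlap each other, and a difference between the peaks was not tested. The same 10 reads gave a fold of 4.26 in the middle peak and 8.25 in the intron peak, because the local background was 1.58 reads in the former and 0.333 in the latter. The value of 0.333 is the lowest in the list and is shared by 4181 peaks. Base composition also differed along the gene start, from 89.1% GC with 22 CpG in the upstream window to 68.3% in the middle and 47.5% with 1 CpG in the intron window. None of the 3 peaks held a composite element. The middle peak had the lowest −log10 q of the 3, at 3.07. It drops out with a −log10 q or fold of at least 5, and the intron peak drops out with summits within 500 bp. In none of these settings does Vegfc keep 3 promoter peaks. Vegfc had no distal peak, and no other protein-coding gene starts within 50 kb of it.

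Pgf, placental growth factor, had no listed peak of its own. The gene spans chromosome 12, 85166635 to 85177790 (minus strand), and its 2 start sites lie 494 bp apart. The mean GC share over 1 kb centred on each start was 57.5%. This was the lowest of the 4 genes, Vegfa having 63.6%, Vegfc 66.3% and Vegfb 70.3%. The nearest summit was 35186 bp downstream of the inner start, inside an intron of Rps6kl1, and nearer to that gene. It had 9 reads and a fold of 5.38 (2.75 to 9.73), and its whole summit window is soft-masked as repeat. The lowest pileup in the list is 4 reads, and a weaker signal at Pgf would not be listed. Eif2b2, a subunit gene of the eIF2 exchange factor that starts 41691 bp away, had no peak either. The order of the family by highest fold was Vegfa, then Vegfc and Vegfb, then Pgf without a peak. The intervals of Vegfc and Vegfb overlap, so the order of these genes is not settled.

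Of the related ligand genes, 3 of 5 had a promoter peak, and the 95% Wilson interval of 23.1 to 88.2% covers the 27.9% of all genes. Pdgfa, a platelet-derived growth factor, had 3 promoter peaks, as Vegfc did, the highest of fold 11.2 (7.19 to 16.7). Pdgfb had a fold of 5.65 and Pdgfc 4.74. Vegfd, the other lymphatic VEGF gene, and Pdgfd had no promoter or distal peak, and the summit nearest to Vegfd on chromosome X was 148168 bp away. None of these 5 genes had a peak near the fold of Vegfa.

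Among the receptors and co-receptors 1 of 5 had a promoter peak (3.62 to 62.4%), which is near the 27.9% of all genes. This was Nrp2, a co-receptor for VEGF-C, with 18 reads and a fold of 6.99 (4.30 to 10.8) 40 bp upstream of a start. Distal peaks were listed for 3 of the 5, against 18% of all genes. The strongest at each of the 3, which were looked up after the counts were seen, had folds of 22.5 (15.3 to 32.0) in an intron of Nrp2, 10.7 (6.20 to 17.5) at 16455 bp upstream of Kdr, and 7.5 (3.84 to 13.6) in an intron of Nrp1. Flt1 and Flt4, the receptors of VEGF-B with Pgf and of VEGF-C, had neither kind.

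Among upstream regulators, all 5 listed ER stress genes, Xbp1 among them, had a promoter peak (Wilson interval from 56.6%), against 27.9% of all genes. Their median fold was 10.8. Atf6 stood at 30.1 (22.1 to 40.1), Eif2ak3 (PERK) and Ern1 (IRE1) at 10.8 each and Atf4 at 6.85. The highest promoter peak of each had no composite element within 50 bp of its summit. Distal peaks were listed for 3 of the 5, against 18% of all genes. The highest was 29956 bp upstream of Xbp1, with a fold of 36.7 (27.5 to 48.1). Of 9 hypoxia regulators 4 had a promoter peak, and the interval of 18.9 to 73.3% covers the share of all genes. Egln2, a prolyl hydroxylase that marks HIF proteins for destruction, stood at 13.5 (9.33 to 18.8), Hif1a at 7.72, Vhl, which recognises hydroxylated HIF, at 7.31 and Egln1 at 5.38. Epas1, Hif3a, Arnt, Egln3 and Hif1an had none. Distal peaks were listed for 2 of the 9, near the 18% of all genes. These were Hif1an at 23.9 (17.6 to 31.8) and Epas1 at 6.75 (3.34 to 12.6). RNA-binding and splicing regulators of Vegfa mRNA had 4 of 8 (21.5 to 78.5%, again covering it), led by the splicing factor Srsf1 at 14.8, with Clk1 at 7.74, Srsf6 at 5.71 and Srpk1 at 4.26.

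Downstream of the receptors, 9 of 12 signalling genes had a promoter peak (46.8 to 91.1%), against 27.9% of all genes, with a median fold of 7.81. Among them were Ptk2, focal adhesion kinase, at 13.4, the adaptor Nck1 at 9.64 and Plcg1, the phospholipase recruited by the Kdr receptor, at 8.48. Of 5 genes that process VEGF-C, 2 had one (11.8 to 76.9%, near the share of all genes): the proprotein convertases Pcsk7, at 30 on a peak shared with Rnf214, and Furin at 6.96. Ccbe1 and Adamts3, which together activate VEGF-C outside the cell, had no promoter peak. Adamts3 had a distal peak of fold 7.0 (3.87 to 11.8) 2488 bp downstream of its start, and Ccbe1 had none. Other angiogenic and vascular factors had 2 of 15 (3.74 to 37.9%, covering the share of all genes), Serpinf1 at 7.44 and Apln at 6.16. Serpinf1, which encodes the angiogenesis inhibitor PEDF, was the only one of the 64 pathway genes whose highest promoter peak had a composite element within 50 bp of its summit. The angiopoietins Angpt1 and Angpt2 and their receptor gene Tek had neither a promoter nor a distal peak. Distal peaks were listed for 4 of 12 signalling, 2 of 5 processing and 3 of 15 vascular genes, against 18% of all genes. The highest, 1786 bp downstream of an Angptl6 start, had a fold of 21.2 (15.3 to 28.7).

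In all, 30 of the 64 pathway genes (46.9%) had a promoter peak, against 27.9% of all genes, and 20 of the 64 had a distal peak, against 18% of all genes. The median fold of the 30 was 7.38, against 6.86 over all genes with a promoter peak. The highest of the 30, Atf6, was below the lower bound of the Vegfa interval. These lists were not tested as sets, and their genes are not a sample of liver genes. The lists were also chosen with earlier results of these data known, so a share above that of all genes is description only.

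**Figure D4:**
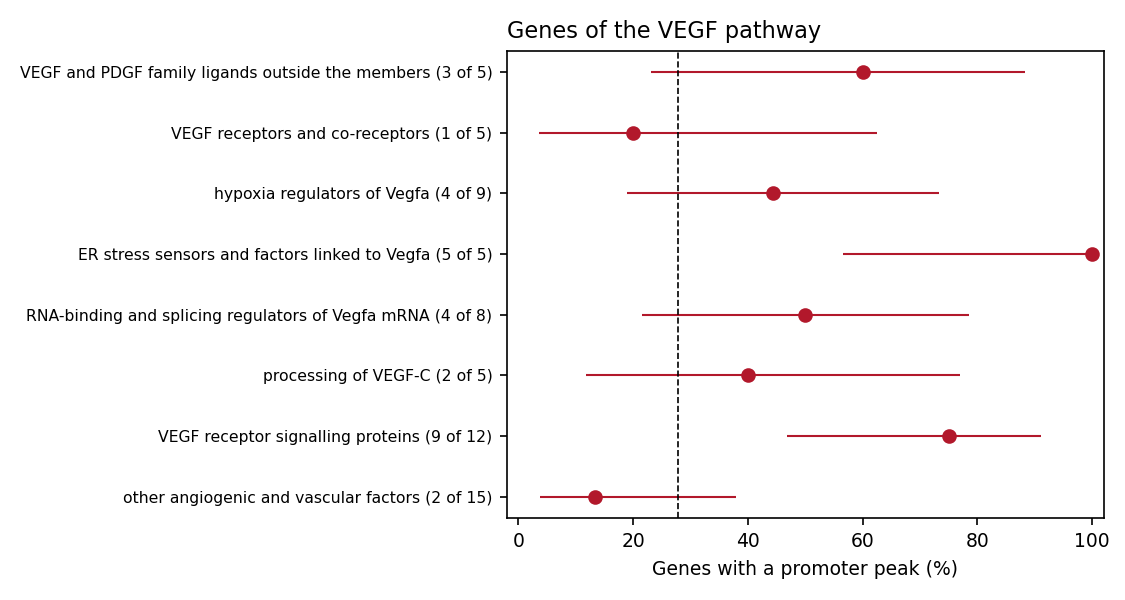
Share of genes with a promoter peak (x axis, %) in 8 lists of the VEGF pathway, as points with 95% Wilson intervals and the counts in the labels. The dashed line is the 27.9% of all protein-coding genes, and the 15 other vascular factors lie lowest at 2 of 15 while all 5 ER stress genes have a peak.

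A peak shows binding in pooled tissue and neither RNA nor the cell it came from. Of marker genes, 1 of 9 for hepatocytes (Ass1, 9.0), 0 of 8 for liver endothelium, 0 of 5 for Kupffer cells and 0 of 5 for stellate cells had a promoter peak, against 27.9% of all genes. With so few genes in each list the upper Wilson bounds are 43.5, 32.4, 43.4 and 43.4%, all above that share. Distal peaks were listed for 6 of 9, 2 of 8, 0 of 5 and 0 of 5, against 18% of all genes. These counts do not check the tissue label, because they measure no expression. The cells in which Vegfa was bound cannot be told apart.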

How the data were processed

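ChIP-seq of CHOP in tunicamycin-treated mouse liver was analysed from 1 deposited peak list. No file of the input library was analysed here. Per the labels' protocols, Bowtie placed single-end reads on mm10, allowing 2 mismatches, and stacked reads were thinned. SAMtools 1.9 filtered the alignments and MACS2 2.1.2 called the peaks with its defaults, per the same protocols and the submitters' processing notes. The authors deposited for each peak a fold (a ratio to local background), −log10 p, −log10 q, a score and the summit offset. The score was not used.

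Reads at each summit and local background were solved from fold and −log10 p, which MACS2 ties by a Poisson distribution. All 14157 peaks were solved within 0.0001. The median summit held 11 reads (4 to 329). The number of mapped reads per library is unknown here. The solver and the peak assignment were tested on simulated data.

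Start sites were those of coding transcripts in GENCODE M21, on GRCm38.p6, into whose chromosomes all peaks fit. Soft-masking is that of the RefSeq sequence. For Ddit3, which the annotation holds under 2 gene entries, the entry with more transcripts was used. The 15 motifs were searched on both strands within 50 bp of summits (the summit window). No test was run, since there is 1 library. Named are all members with their peaks, Ppp1r15a and Ddit3, up to 4 genes per list by promoter fold, neighbours within 50 kb, and the 3 genes either side of Vegfa in promoter fold. Other genes were named after their values were seen. One gene that this rule names is not reported here. Members and lists were chosen with earlier results of these data known. Alternatives varied peak thresholds, distances, start-site sets, ranking and motif windows. Scripts ran on pysam 0.24.0, pandas 2.3.3, matplotlib 3.10.9, scipy 1.17.1 and numpy 2.4.6 under Python 3.11.15.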

Additional observations from a re-analysis of the deposited data

How the results depend on the processing

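A promoter peak was found for 3 of the 4 VEGF genes with −log10 q or fold of at least 5, summits within 3 kb, peak overlap in place of summits, or the starts of all transcripts. The shares of all genes were then 21.0, 23.5, 30.3, 28.3 and 28.7%, in that order. A promoter peak was found for 2 members, Vegfb and Vegfc, with summits within 500 bp (25.8% of all genes), the outermost start (25.5%) or RefSeq start sites (27.9%), the last chosen after seeing the data. In those 3 settings the Vegfa intron peak is no longer within the promoter distance. The distal count of 1 was 0 with −log10 q of at least 5, with fold of at least 5, within 20 kb, and with the nearest start of any gene type. It was 2 with the outermost start and 2 with RefSeq start sites, where the intron peak joins it, and 4 when any peak within 50 kb counts. It was again 1 within 100 kb and with all transcript starts. The Vegfa intron peak exceeded 99.4% of peaks by fold, 99.7% by −log10 q and 99.8% by summit reads. A composite element was present in 1 of 6 member peaks within 25, 50 or 100 bp of the summit and in 2 over the whole peak, the second being the Vegfa distal peak. The pathway count of 30 of 64, against 27.9% of all genes, ran from 23 of 64 with RefSeq start sites, again against 27.9%, to 35 of 64 within 3 kb, against 30.3%. No paired analysis was possible because each group is 1 library. With 11 reads at the median summit, the Vegfb, Vegfc and distal folds have wide intervals, and signal below the calling threshold is not listed.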
